A study of Mus musculus with 3 samples.

Results

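The HOX genes are the homeobox genes of the Hoxa, Hoxb, Hoxc and Hoxd clusters. NKX2-5 binding around them was mapped in mouse embryonic heart at E11.5. Members were all protein-coding genes of the GENCODE M1 annotation (mm9) named Hoxa, Hoxb, Hoxc or Hoxd plus a number. They came to 39 of 22225 protein-coding genes, in 40 gene records because Hoxa3 had a pair of records. Chromatin immunoprecipitation with sequencing (ChIP-seq) was done on hearts of Parkes mice with the NKX-2.5 (N-19) antibody, and all samples were of 1 stage, strain and tissue with no treatment or mutation. The ChIP was represented by 2 libraries, S1 and S4, while the single Input sample was not analysed here. The study describes S1 and S4 as separate experiments, but nothing in the labels said whether they came from separate pools of hearts, so the spread between them may be technical. Hearts were homogenised, so the cell types behind a peak cannot be told apart.

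HOX genes encode transcription factors that give cells their position along the head-to-tail axis, and within a cluster all are transcribed in the same direction. Genes at the 3′ end, such as Hoxb1, are expressed earliest and furthest towards the head and respond to retinoic acid, whereas genes at the 5′ end, such as Hoxa13 and Hoxd13, act in the tail, the limb ends and the genital tract. In the heart, Hoxb1 and Hoxa3 are known from progenitors of the second heart field and from the neural crest that populates the outflow tract. HOX proteins bind DNA together with PBX and MEIS homeodomain proteins. NKX2-5 itself is a homeodomain factor of another family, encoded outside the clusters, and acts in early cardiac cells.

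The measured quantity was a list of enriched regions (peaks) for each library, each with a score from the authors' peak caller, read here as −log10 of its p-value multiplied by 10 from the tool named and the range of values. S1 held 4418 peaks with a median score of 212, and S4 held 5441 with a median of 223. No peak scored under 140. Sequencing depth is unknown because only peaks were listed, and scores were ranked only within a list. As a check of the labelled tissue, 15 of 16 cardiac muscle genes had a peak within 10 kb of a start in each library, Mef2c being the exception, where 9.22% of all protein-coding genes had one in S1 and 11.7% in S4. That list, like the others, was chosen with earlier results of these data known.

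The 4 clusters covered 0.492 Mb. The 11 Hoxa genes lay at chr6:52105366-52210874 on the minus strand. The others lay on the plus strand, the 10 Hoxb genes at chr11:96055630-96229570, the 9 Hoxc genes at chr15:102751534-102867274 and the 9 Hoxd genes at chr2:74506367-74603200. Each span was extended by 200 kb on each side to give a window, and the 4 windows covered 2.092 Mb, 0.0788% of the chromosomes used. Across these windows 3 regions were enriched in both libraries, all of them beyond the 3′ end of a cluster, 1 beyond the Hoxa cluster and 2 downstream of Hoxb1. No HOX gene had a peak within 10 kb of a start. Only S4 had peaks at 2 more sites, 1 inside the Hoxb cluster and 1 at the far edge of the Hoxc window.

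The sequences below are the shared regions beyond the Hoxa and Hoxb clusters, which carry the main result, and the S4 peak between Hoxb13 and Hoxb9, which was the only peak inside a cluster. Each is the stretch of at most 300 bases with the most motif matches, read 5′ to 3′ on the plus strand of mm9. Capitals mark exact matches on either strand to AAGTG, the core of the site bound by NKX2-5, to TGACA, the core bound by MEIS proteins, to GTGNTGACA, a spaced form that contains TGACA, and to TGATNNAT, a form bound by PBX with HOX proteins.
Region beyond the Hoxa cluster, chr6:52036189-52036488: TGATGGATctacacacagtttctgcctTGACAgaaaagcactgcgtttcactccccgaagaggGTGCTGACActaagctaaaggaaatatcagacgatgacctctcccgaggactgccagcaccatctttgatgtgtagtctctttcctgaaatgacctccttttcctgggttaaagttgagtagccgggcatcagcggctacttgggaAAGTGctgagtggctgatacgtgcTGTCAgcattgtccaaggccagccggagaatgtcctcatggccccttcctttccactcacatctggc
First region downstream of Hoxb1, chr11:96258407-96258706: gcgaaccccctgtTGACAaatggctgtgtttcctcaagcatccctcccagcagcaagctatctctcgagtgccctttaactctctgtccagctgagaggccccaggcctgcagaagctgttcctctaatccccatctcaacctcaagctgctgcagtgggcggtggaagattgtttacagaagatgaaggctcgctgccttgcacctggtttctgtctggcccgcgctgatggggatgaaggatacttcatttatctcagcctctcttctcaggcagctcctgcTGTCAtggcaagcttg
Second region downstream of Hoxb1, chr11:96261509-96261808: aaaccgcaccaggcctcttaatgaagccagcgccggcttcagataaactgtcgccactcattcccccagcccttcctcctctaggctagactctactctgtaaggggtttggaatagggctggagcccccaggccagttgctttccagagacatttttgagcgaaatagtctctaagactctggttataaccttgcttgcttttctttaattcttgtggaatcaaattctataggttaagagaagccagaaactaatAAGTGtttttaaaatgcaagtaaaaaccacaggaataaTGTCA
Peak between Hoxb13 and Hoxb9, chr11:96075995-96076294: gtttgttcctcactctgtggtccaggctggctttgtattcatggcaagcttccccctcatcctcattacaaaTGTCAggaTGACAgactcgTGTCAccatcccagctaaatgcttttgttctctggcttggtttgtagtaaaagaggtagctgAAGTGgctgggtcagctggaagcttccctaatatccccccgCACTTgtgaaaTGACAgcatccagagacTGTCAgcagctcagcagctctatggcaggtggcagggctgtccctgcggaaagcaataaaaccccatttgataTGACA
The promoter of Hoxb1 is shown because its start was the nearest of the Hoxb starts to the shared regions. It is the 250 bases before the 5′-most annotated start, in the direction of transcription, with the same capitals. Hoxb1 is known to maintain its own transcription in the hindbrain through PBX-HOX sites upstream of the gene.
Hoxb1 promoter, plus strand, chr11:96226816-96227065: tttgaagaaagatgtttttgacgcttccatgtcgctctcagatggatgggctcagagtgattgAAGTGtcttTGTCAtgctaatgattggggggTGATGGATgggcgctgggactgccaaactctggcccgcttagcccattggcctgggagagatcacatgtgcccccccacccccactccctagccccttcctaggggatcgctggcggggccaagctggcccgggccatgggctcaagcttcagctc

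The Hoxa region was intergenic, between the Hoxa cluster and Skap2, which encodes an adaptor protein of immune cell signalling. In S1 the peak ran from chr6:52036076-52036631 with a score of 347, rank 992 of 4418. In S4 it ran from chr6:52036003-52036782 with a score of 226, rank 2672 of 5441. The S1 peak lay wholly inside the S4 peak. In S1 it scored at or above 77.6% of the list and in S4 at or above 50.9%, so its place in the list was higher in S1. Its near edge was 68.7 kb (S1) and 68.6 kb (S4) outside the Hoxa span. The Skap2 start was 73.5 kb away on the other side in both libraries.

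The Hoxb regions formed a pair, also intergenic, between Hoxb1 and Skap1, which encodes the related adaptor protein of T cells. The first had a score of 933 in S1 (chr11:96258247-96258871), rank 167, and 496 in S4 (chr11:96258221-96258867), rank 736. The second had a score of 546 in S1 (chr11:96261045-96261975), rank 470, and 639 in S4 (chr11:96261029-96261996), rank 480. Both were thus among the upper part of each list, at or above 96.2% and 89.4% of S1 peaks and 86.5% and 91.2% of S4 peaks. The first was the stronger of the pair in S1, and the second was the stronger in S4. The pair were 2173 bp apart in S1 and 2161 bp apart in S4. Of all peaks, 9.53% in S1 and 10.7% in S4 had another peak within 3 kb. The first region began 30.7 kb downstream of the Hoxb1 start and the second 33.5 kb, whereas the Skap1 start was 67.0 and 63.9 kb away.

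The ratio of the S4 score to the S1 score differed among these regions. On the log2 scale it was −0.62 for the Hoxa region, −0.91 for the first Hoxb region and 0.23 for the second. Over all 2601 overlapping pairs the median was 0.18, with quartiles of −0.25 and 0.61. The Hoxa region and the first Hoxb region therefore lay below the lower quartile, and the second Hoxb region close to the median. With 1 value in each library, no error can be given for a single ratio. Scores are not scaled between libraries, so the ratios were read only against those of all pairs and are not ratios of binding.

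The remaining peaks were weaker and had no partner. The S4 peak inside the Hoxb cluster (chr11:96075739-96076311) scored 165, rank 4204, at or above 22.8% of its list. It was 20.1 kb downstream of Hoxb13, a gene of the tail and prostate, 36.1 kb upstream of Gm53 and 56.5 kb upstream of Hoxb9. It lay in the long interval that sets Hoxb13 apart from the other Hoxb genes. The nearest S1 peak was 181.9 kb away. The S4 peak in the Hoxc window (chr15:102552282-102553372) scored 189.7, at or above 37.1% of its list, and lay over the start of Calcoco1, a coactivator and autophagy receptor gene, 198.2 kb outside the Hoxc span. A window only slightly shorter would have left it out. Just beyond the other edge, 210.6 kb (S1) and 210.4 kb (S4) from the span, a shared region near Nfe2, Hnrnpa1 and Cbx5 scored 352 and 308. The Hoxd window held no peak in either library.

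**Figure D1:**
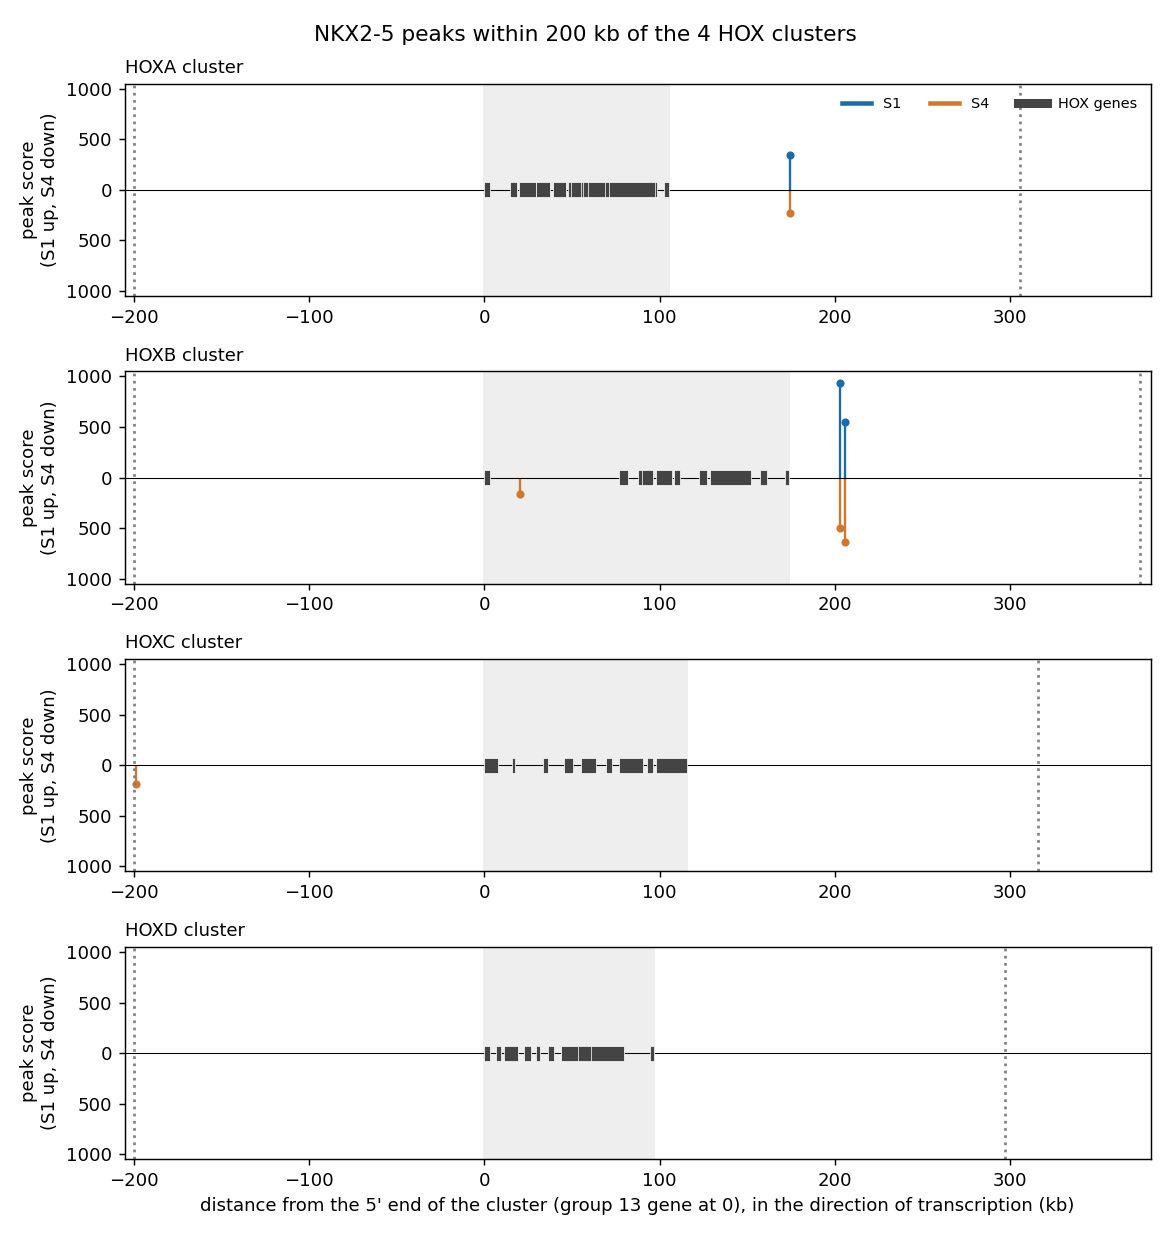
Peaks in the windows of the 4 HOX clusters, with distance from the 5′ end of the cluster in the direction of transcription (kb) on the horizontal axis and peak score on the vertical axis, S1 upwards and S4 downwards. Dark boxes are HOX genes, grey shading is the cluster span and dotted lines are the window edges. The shared peaks stand to the right of the Hoxa and Hoxb spans, and the Hoxd panel is empty.

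By library, the windows held 3 peaks in S1 and 5 in S4. This was 1.43 per Mb (95% exact Poisson interval 0.296 to 4.19) in S1 and 2.39 per Mb (0.776 to 5.58) in S4, where the genome means were 1.66 and 2.05 per Mb. These intervals cover counting error only. The ratio to the genome mean was 0.862 in S1 and 1.17 in S4, a mean of 1.01 ± 0.215 (SD, n = 2). Peak density around the HOX clusters therefore did not differ from the genome mean by more than the counting error. A peak was held by 2 of 4 windows in S1, where 43.9% of 5064 consecutive windows of the mean HOX length (523 kb) held one, and by 3 of 4 in S4, where 48.6% did. Within the cluster spans alone there was no peak in S1 and 1 in S4, where the genome mean gives 0.819 and 1.01, so a lower density in the spans was not detectable with so few peaks.

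The spans held 79.3 HOX genes per Mb, against 8.37 protein-coding genes per Mb of genome, a 9.47-fold difference, so the spans with at most 1 peak were dense in genes. The Iroquois clusters, homeobox genes with roles in ventricular patterning and conduction, were set beside them by the same rule. Their windows held 10 peaks in S1 and 15 in S4, which was 3.34 per Mb (1.60 to 6.14) and 5.01 per Mb (2.80 to 8.26). The intervals overlapped those of the HOX windows in both libraries, and the difference was not tested.

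**Figure D2:**
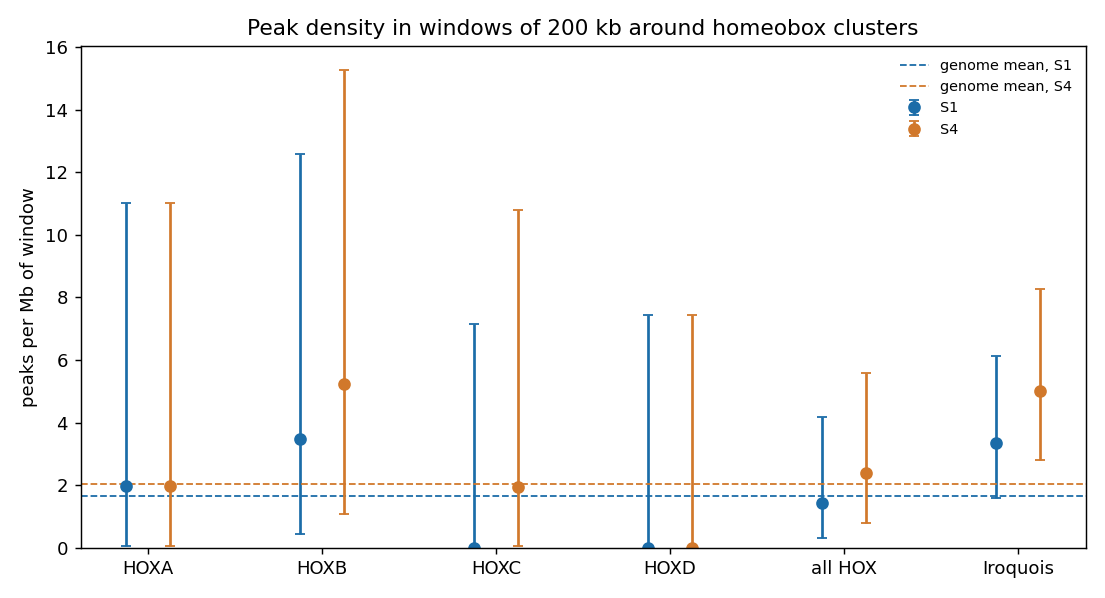
Peaks per Mb of window (vertical axis) for each HOX cluster, all HOX windows and the Iroquois windows (horizontal axis) in S1 and S4, with bars for the 95% exact Poisson interval and dashed lines for the genome means. The intervals of all HOX windows, 0.296 to 4.19 in S1 and 0.776 to 5.58 in S4, contain the dashed lines of both libraries.

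Overlap between the libraries in the windows could not be told apart from that of the lists at large. All 3 S1 peaks were shared (100%, 95% Clopper-Pearson interval 29.2 to 100), as were 3 of 5 S4 peaks (60%, 14.7 to 94.7). Over the whole lists 58.9% of S1 peaks and 47.0% of S4 peaks were shared, and both values lay inside these intervals.

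Within the windows, the shared regions all lay in the intervals between the 3′ end of a HOX cluster and the neighbouring gene. The interval from the Hoxa cluster to Skap2 (143 kb) held 1 peak in each library, where the genome mean gives 0.238 in S1 and 0.293 in S4. The interval from Hoxb1 to Skap1 (96.3 kb) held 2 in each, against 0.160 and 0.197. The matching intervals from Hoxc4 to Smug1 (116.5 kb) and from Hoxd1 to Mtx2 (60.7 kb) held none. At the 5′ ends, the intervals from Hoxa13 to Evx1, Hoxb13 to Ttll6 and Hoxd13 to Evx2 held none, and that from Hoxc13 to Calcoco1 held the S4 peak over the Calcoco1 start. Evx1 and Evx2 are homeobox genes closely related to the HOX genes. The intervals were compared after the peaks in them had been seen, and the difference between the 3′ and 5′ sides was not tested.

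Each cluster lay in a stretch without a peak that was longer than the median, although a gene falls into a long interval more readily than into a short one. The Hoxa genes lay in a peak-free interval of 444.5 kb in S1 and 444.2 kb in S4. The Hoxc genes lay in one of 622 kb in S1 and 524.3 kb in S4. For Hoxb it was 1.01 Mb in S1, and in S4 the peak between Hoxb13 and Hoxb9 divided it. The Hoxd genes lay in the longest, 2.79 Mb in S1 and 1.47 Mb in S4. Of all peak-free intervals, 3.64% in S1 and 6.84% in S4 were at least as long as that of Hoxd, and the medians were 218.5 and 166.8 kb. The Hoxd interval was long in both libraries, while between 23.7% and 33.4% of intervals were at least as long as those of Hoxa and Hoxc.

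No HOX gene had a peak close to a start. Within 1 kb there were 0 of 39 in both libraries, where 4.47% of protein-coding genes had one in S1 and 6.11% in S4. Within 10 kb there were again 0 of 39, which allows a share of up to 7.69% at 3 counts (exact upper limit 9.03%) if the genes were independent, where 9.22% of protein-coding genes had one in S1 and 11.7% in S4. Within 50 kb there were 2 in S1, Hoxb1 and Hoxb2 (5.13%), where 23% of protein-coding genes had one. In S4 there were 3, the same genes and Hoxb13 (7.69%), where 28.6% had one. The 39 genes are not independent, because they lie in 4 clusters and rested on 5 distinct nearest peaks in S1 and 6 in S4. The shares of HOX genes were thus below those of all genes up to 50 kb, with counts too small and too linked to say more.

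Median distances to a peak were close to those of other genes, lower in S1 and higher in S4. The median distance was 174.2 kb in S1 and 159 kb in S4 for HOX genes, and 179.6 and 138.6 kb for all protein-coding genes. The clusters differed. Median distances in S1 were 122.1 kb for Hoxa, 96.2 kb for Hoxb, 270.4 kb for Hoxc and 786 kb for Hoxd. In S4 they were 121.9, 61.7, 233.4 and 495.5 kb in the same order. Hoxb genes were nearest and Hoxd genes furthest in both libraries, and the ranges of Hoxc and Hoxd overlapped with no other cluster.

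The gene nearest to a peak was at an end of the cluster for Hoxb, Hoxc and Hoxd. In the Hoxb cluster it was Hoxb1 at 30.7 kb in S1, whereas in S4 it was Hoxb13 at 20.1 kb. For Hoxc it was Hoxc4 at 213 kb in S1, on the side of Nfe2, and Hoxc13 at 198.2 kb in S4, on the side of Calcoco1. For Hoxd it was Hoxd13, at 757 kb in S1 and 466 kb in S4, from peaks of score 181 and 142. In S1, distance grew step by step from Hoxb1 to Hoxb13, from 30.7 to 202.6 kb, since these genes share the 1 nearest peak.

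**Figure D3:**
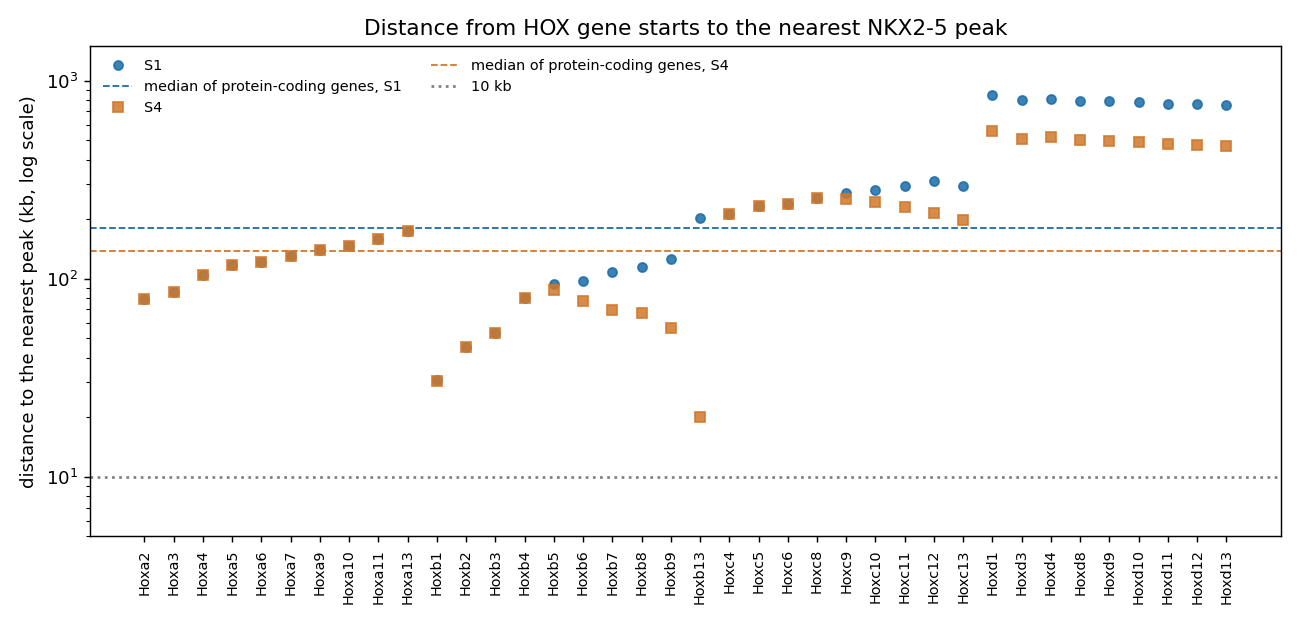
Distance from the nearest start of the HOX genes shown (horizontal axis) to the nearest peak (kb, log scale on the vertical axis) in S1 (circles) and S4 (squares), with dashed lines for the medians of protein-coding genes and a dotted line at 10 kb. No gene shown falls below the dotted line, and the Hoxd genes stand above all others in both libraries.

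At wider limits the HOX genes came closer to the rest. Within 100 kb there were 9 HOX genes in S1 (23.1%, against 36.1% of protein-coding genes) and 13 in S4 (33.3% against 42.2%). Within 200 kb there were 20 in S1 (51.3% against 52.9%) and 22 in S4 (56.4% against 59.7%). Within 500 kb the shares were 76.9% against 77.1% in S1 and 89.7% against 81.2% in S4.

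**Figure D4:**
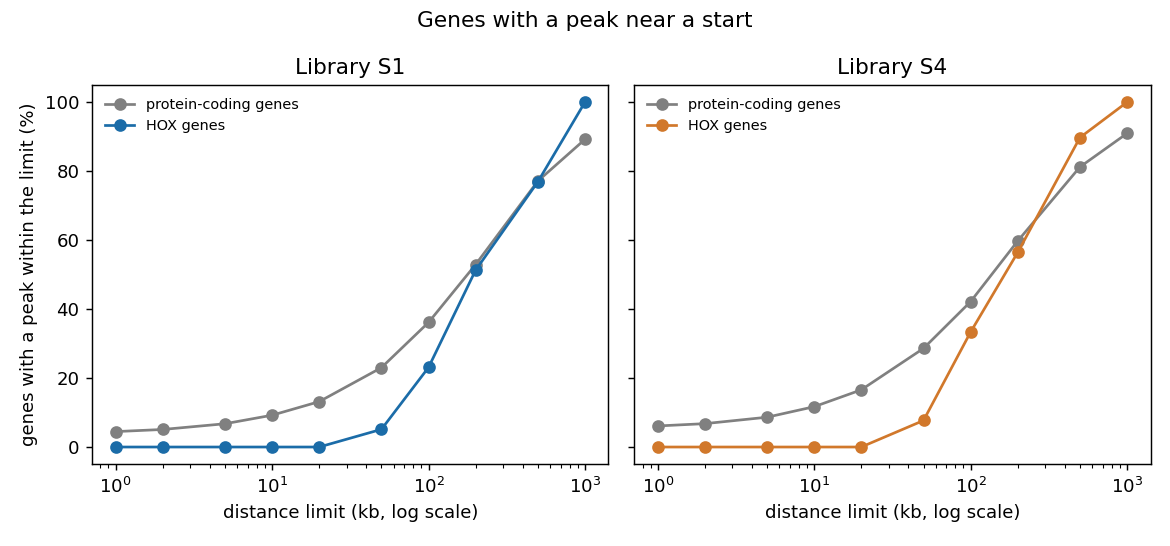
Percentage of HOX genes and of all protein-coding genes with a peak within each distance of a start (horizontal axis, kb, log scale), S1 on the left and S4 on the right. HOX genes stay at 0 up to 20 kb, are lower than other genes at 50 and 100 kb, and reach 100% at 1000 kb.

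Each shared region was also assigned to its nearest genes. Of 2546 shared regions, those with a HOX gene among their 2 nearest protein-coding genes within 1 Mb gave 3 of 39 HOX genes (7.69%, 95% interval 1.62 to 20.9), where 16% of protein-coding genes were named in this way. Hoxb1 and Hoxb2, which act in the hindbrain and the cranial neural crest, were among them, both named by the same 2 regions. The interval takes the genes as independent, which they are not, so it is too narrow to compare with the share of all genes.

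Genes that act with HOX genes were described in the same way, by a peak within 10 kb of a start, which 9.22% of all protein-coding genes had in S1 and 11.7% in S4. Of 14 related homeobox genes (such as Evx1, Cdx2 and Gbx2) none had one in either library. The exact interval for this ran from 0 to 23.2% and held the share of all genes. Of 9 HOX cofactor genes, Meis1 and Meis2 had one in both libraries, and Pbx2 had one in S4. The exact interval for 2 of 9 in S1 ran from 2.81 to 60.0% and that for 3 of 9 in S4 from 7.49 to 70.1%, and both held the share of all genes. The Meis1 peak lay over a start and scored 269.5 in S1 and 584 in S4, and the Meis2 peak also lay over a start and scored 378.5 and 319.7. Of 15 genes of the retinoic acid pathway, which regulates 3′ HOX genes, none had one in S1 and 4 had one in S4. The 4 were Rara and Rxra (receptors), Crabp1 (a binding protein) and Rdh10 (a synthesis enzyme). Exact intervals ran from 0 to 21.8% in S1 and from 7.79 to 55.1% in S4, and both held the share of all genes. Within 50 kb there were 3 of 15 retinoic acid genes in S1 and 5 of 15 in S4, where 23% and 28.6% of all genes had a peak. S4, the longer list, thus held more of them than S1 at both limits. The 4 peaks within 10 kb in S4 had no partner in S1. Their scores were 176 (Rara), 145 (Rxra), 159 (Crabp1) and 231 (Rdh10), where the lowest of the list was 140. In S1 the nearest peaks lay past that limit, at 10.5 kb for Rdh10, 15.3 kb for Rxra, 22.9 kb for Crabp1 and 130.7 kb for Rara. The lists were not tested against each other or against the HOX genes.

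Motifs were searched as exact letters on both strands. Within 100 bp of the peak midpoint, AAGTG was found in 1 of 3 HOX window peaks in S1 and 1 of 5 in S4, where 60.1% and 57.8% of all peaks held it. The only peaks with it were those of the Hoxa region, with the site 47 bp from the middle of the shared stretch. TGACA was found in 2 of 3 and 3 of 5, where 57.9% and 56.2% of all peaks held it. Matches were counted only where they lay wholly inside these 100 bp. GTGNTGACA and TGATNNAT were found in none, where between 5.46% and 7.38% of all peaks held them. The GTGNTGACA match of the Hoxa region was centred 97 bp from the middle of the S1 peak and reached past that limit. With 3 and 5 peaks the intervals of these shares are wide, and for AAGTG they ran from 0.840 to 90.6% in S1 and from 0.505 to 71.6% in S4.

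Over the whole peak the motifs were more common. AAGTG was in 3 of 3 HOX window peaks in S1 and 4 of 5 in S4 (88.7% and 91.9% of all peaks), the exception being the peak over Calcoco1. TGACA was in all 8, where 84.7% of all S1 peaks and 88.5% of all S4 peaks held it. These 8 count each shared region once in each library. GTGNTGACA and TGATNNAT were each in the Hoxa region alone, in both libraries, where 12.9% and 12.4% of all peaks held the first and 19.99% and 24.3% the second. In the printed Hoxa stretch both can be seen in capitals, together with a separate AAGTG. The S4 peak between Hoxb13 and Hoxb9 held 6 matches to TGACA and 3 to AAGTG, and the Hoxb shared regions held at most 3 and 2. The Hoxa region held 3 and 2 in S1 and 4 and 3 in S4. Matches per peak over the whole lists were not counted. A match is a description of letters and not a measured site.

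Sequence of the HOX loci differed from the genome in composition. GC content was 49.3% in the spans, 44.9% in the windows and 41.8% over the genome. CpG dinucleotides numbered 24.4 per kb in the spans, 14.0 in the windows and 8.34 over the genome. The spans held fewer matches to each motif than the genome. TGACA occurred 1557 times per Mb in the spans and 2500 times in the genome, and GTGNTGACA 20.3 and 38.5 times. Of the 70 matches to GTGNTGACA in the windows, 1 lay under a peak (1.43%), that of the Hoxa region. Over the genome 0.620% of matches lay under S1 peaks and 0.733% under S4 peaks, and a count of 1 is too small to compare with these shares.

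Promoters of HOX genes were compared with all promoters over the 250 bases before the start. AAGTG was in 11 of 39 HOX promoters (28.2%) and in 40.1% of all promoters, and TGACA in 9 (23.1%) and 37.1%. TGATNNAT was in 6 (15.4%), among them Hoxb1, shown above, and Hoxb3, and in 6.99% of all promoters. GTGNTGACA was in none of the 39 and in 1.09% of all promoters. Exact intervals ran from 15.0 to 44.9% for AAGTG, 11.1 to 39.3% for TGACA and 5.86 to 30.5% for TGATNNAT, and each held the share of all promoters. Median GC content was 54% in both sets. None of the HOX promoters lay under a peak.

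Sampled stretches of the HOX window peaks had no second exact copy in the assembly. For each peak, 20 of 20 evenly spaced 32-mers were found once. Inexact copies and the bases between the samples were not searched. The Hoxa region and the Hoxb regions had no run of identical bases longer than 10 in common, and both Hoxb regions shared a run of 13. The S4 peak between Hoxb13 and Hoxb9 also shared a run of 13 with each of the Hoxb regions. The length of such runs between unrelated sequences was not calculated.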

How the data were processed

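Per the labels and the study's methods, the authors sequenced both ChIP libraries on a Genome Analyzer IIx, aligned reads to mm9 with BOWTIE and called peaks with MACS 1.4, 1 deposited list per library and not pooled. Base calling used CASAVA 1.4 by the submitters' processing notes. Settings and use of the Input as control are not given in the sources used here. The deposited score was taken to be −log10 of the caller's p-value multiplied by 10, as that tool writes it, since no header names it. It is not scaled between libraries. It rises with depth, which is unknown.

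Members, gene lists and comparisons were chosen with earlier results of these data known. Peaks in 21 chromosomes were placed on the 4 cluster spans extended by 200 kb, with 1-based coordinates. Distance ran from the nearest annotated start to the nearest peak edge. Peaks were shared at an overlap of at least 1 bp. Peaks in the windows were named, as were HOX genes within 10 kb of a peak or, failing that, the nearest HOX gene of each cluster, and 1 HOX gene is not reported singly here. Intervals were exact at 0.95. With 1 condition there were no groups to test, and no test was run. Alternatives were other flanks, distances, overlaps and motif windows, a score of at least 200 and merged peaks. Procedures were tested on simulated data. Calculations used Python 3.11.15, numpy 2.4.6, scipy 1.17.1, matplotlib 3.10.9 and bedtools 2.31.1.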

Additional observations from a re-analysis of the deposited data

How the results depend on the processing

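The counts are small and depend on the choices that set them. Of 38 alternatives, 21 left a count within 1.5 times, a share within its interval or the density ratio within 1 SD. The other 17 moved the value further. Part of the 21 could not have moved, so the tally is no measure of stability. With n = 2, each library always lies within 1 SD of the mean ratio. A count of 0 stays 0 under a stricter limit or with fewer peaks, and a share of 100% stays 100% under a looser overlap. With no flank the peak count was 0 in S1 and 1 in S4, and with flanks of 500 kb it was 7 and 12. The ratio of peak density to the genome mean (1.014) was 0.496 with no flank, 1.45 with flanks of 100 kb and 1.4 for peaks scoring at least 200, and single libraries gave 0.862 to 1.17. At that score S4 kept 3 peaks in the windows, of which 100% were shared, since both S4 peaks without a partner score under 200. HOX genes near a start numbered 3 within 50 kb and 3 by the rule of the 2 nearest genes, chosen after seeing the data, and 0 at 10 kb without either library. Motif matches among the 8 peaks within 25 bp of the midpoint and over the whole peak numbered 1 and 7 for AAGTG and 0 and 8 for TGACA, and over the whole peak 2 for GTGNTGACA and 2 for TGATNNAT. Of all peaks, 21.2% in S1 and 20.6% in S4 held AAGTG within 25 bp, and 21.2% and 20.9% held TGACA. No paired analysis was possible because the results come from no test.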

Other observations

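Between 200 and 500 kb from the cluster spans, 2 more shared regions lay beside the Hoxa cluster. Of these, 1 lay on the 3′ side, beyond the 3′ end of Skap2 (273 in S1, 355 in S4). The other lay on the 5′ side of the cluster (221 and 314). In S1 it was 270.2 kb outside the span and 24.96 kb from a Hibadh start. S4 alone had peaks in introns of Itga5 beside the Hoxc cluster, with scores of 241 and 163, and in an intron of Hibadh (143), and S1 alone had a peak over the Atf7 start (201). Itga5 encodes a fibronectin receptor subunit.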
